A study of Mus musculus with 9 samples.

Results

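The hemoglobin and erythroid genes of fracture callus were followed across the 9 libraries of the series. They were taken by symbol from the table of 22054 genes: the alpha globin genes Hba-a1 and Hba-a2, the beta globin genes Hbb-bs and Hbb-bt, and Alas2, Slc4a1, Epb42, Klf1 and Ahsp. Of these 9 genes, 8 had a row in the table, and Ahsp was not analysed here. The RNA came from callus collected on day 7 after the left femur of male C57BL/6J mice, labelled as 7 weeks old, had been cut and fixed with a needle in the marrow cavity. From the day after surgery, all mice received an intraperitoneal injection every day for a week. The H-151 group (3 libraries) received 200 μl holding 750 nmol of H-151, an inhibitor of STING, the adaptor that signals the presence of DNA in the cytosol. The SR-717 group (3 libraries) received 30 mg/kg of SR-717, an activator of STING. The PBS group (3 libraries) received phosphate-buffered saline and had the same fracture. The labels number the libraries 1 to 3 within each group and do not say whether a library is from a single mouse, so p-values measure the spread between libraries. Whether marrow and blood were removed from the callus before RNA extraction was not given in the sources used here.

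Hemoglobin, the oxygen carrier of red blood cells, is built from alpha and beta globin chains, each holding a heme group. Red cells develop in the marrow from erythroid progenitors, which switch on globin, heme synthesis and membrane genes together under transcription factors such as GATA1 and KLF1, and then lose their nucleus. Reticulocytes, the youngest red cells of the blood, still carry globin messenger RNA, so that a callus sample can hold it from marrow and from blood alike. In bulk RNA, fewer cells of a type and less RNA per cell cannot be told apart.

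Each library held between 16987398 and 23272480 expected counts, which are estimates of reads per gene. Levels are given below as CPM, counts scaled to a common library size after TMM normalization, and as the deposited TPM, which is also scaled by gene length, where genes are compared with each other. A principal component analysis used the 14294 genes that passed a filter on low counts. SR-717 replicate 1 stood apart on the axis that held 46.5% of the variance, with PBS replicate 1 next to it. PBS replicate 3 stood apart on the axis that held 23% of the variance. The 9 osteoblast markers, the check of the bone label, were all present, and their summed level was 24910 to 48710 CPM over the 9 libraries. Most of this sum was Col1a1, at 20950 to 40970 CPM, while Bglap had 61.7 to 366 and Sp7 59.1 to 320.

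The globin genes are pairs of near-identical copies. In the GENCODE annotation of the mm10 build, Hba-a1 lies on chromosome 11 from 32283511 to 32284465 and Hba-a2 on the same strand from 32296489 to 32297298. Hbb-bt lies on chromosome 7 from 103812524 to 103813996 and Hbb-bs from 103826534 to 103828096. Slc4a1 (102348824 to 102366203) is also on chromosome 11, Klf1 (84901928 to 84905291) on 8, Epb42 (121017891 to 121037072) on 2 and Alas2 (150547375 to 150570638) on X. The coding sequences of Hba-a1 and Hba-a2 differ at 1 of 429 bases and those of Hbb-bs and Hbb-bt at 1 of 444. Their transcripts share identical runs of 415 and 430 bases, longer than the 150-base reads, so the split of counts between the copies of a pair is uncertain, and the sum of a pair is the safer value.

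Stretches of promoter are shown for 5 of the 8 genes, from the RefSeq promoter windows of GRCm38.p6. Whether the motifs in them bear on the levels in callus was not tested. Capitals mark 4 motifs on either strand: GATAA, written TTATC where it lies on the other strand; the letters CACCC, read there as GGGTG; the box CCAAT, read there as ATTGG; and the letters TATAA, read there as TTATA. A match of the last 2 motifs can overlap its own reverse complement. These stretches leave out annotated untranslated bases. The alpha globin promoter is shown by Hba-a2 alone because the windows of both alpha genes share a run of 297 of 300 bases.
Hba-a2, chr11:32296379-32296488, plus strand: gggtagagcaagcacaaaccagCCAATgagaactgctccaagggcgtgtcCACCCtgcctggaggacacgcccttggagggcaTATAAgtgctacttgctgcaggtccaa
Hbb-bs, chr7:103827929-103828011, minus strand: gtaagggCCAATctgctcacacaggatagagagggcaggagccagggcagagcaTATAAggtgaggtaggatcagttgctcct
Hbb-bt, chr7:103813997-103814106, minus strand: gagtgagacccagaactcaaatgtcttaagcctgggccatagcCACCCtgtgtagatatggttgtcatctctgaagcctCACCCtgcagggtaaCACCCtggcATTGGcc
Alas2, chrX:150547265-150547374, plus strand: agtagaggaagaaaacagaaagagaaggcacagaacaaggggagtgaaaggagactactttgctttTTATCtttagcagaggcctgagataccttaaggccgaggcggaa
Klf1, chr8:84901818-84901927, plus strand: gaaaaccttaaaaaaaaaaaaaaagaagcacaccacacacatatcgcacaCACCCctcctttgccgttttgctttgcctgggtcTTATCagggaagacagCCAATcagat

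Over the 250 bases before the start, all 7 genes with a window held at least 1 GATAA, the core of the GATA factor motif, which 22.6% of the 32817 promoter windows of the genome hold. CACCC, the core letters of the sites bound by KLF1, was found in 6 of the 7 and in 52.0% of all windows. CCAAT was found in the 4 globin genes and Klf1, against 33.8% of all windows. TATAA was found in the 4 globin genes, Alas2 and Epb42, against 22.8%. The 4 globin windows held all 4 motifs, as did 0.969% of all windows. The 250 bases include annotated untranslated bases and bases beyond the stretches shown, so some counted matches are not marked above. All matches describe the letters only.

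The globin genes were among the abundant transcripts of some callus libraries and a small part of others. They took 0.809%, 1.39% and 0.363% of the counts of H-151 replicates 1 to 3, and 0.0434%, 0.945% and 0.143% of those of the PBS replicates. In the SR-717 replicates their shares were 0.0733%, 0.76% and 0.348%. The exact 95% binomial intervals were narrow, for example 1.38% to 1.39% in H-151 replicate 2 and 0.0424% to 0.0444% in PBS replicate 1, and cover counting error only. The lowest library of the PBS group and the lowest of the SR-717 group were therefore under the lowest H-151 library, while the highest libraries of all 3 groups were at or above 0.76%.

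In mean TPM over the 9 libraries, Hbb-bs was the highest of the erythroid genes at 6201, followed by Hba-a2 at 4725, Hba-a1 at 3623 and Hbb-bt at 1483. Slc4a1, which encodes band 3, the anion exchanger of the red cell membrane, had 73.5 TPM, and Alas2, the erythroid enzyme of the opening step of heme synthesis, had 71.2. Klf1, the erythroid transcription factor that drives beta globin, had 13.5 TPM, and Epb42, which encodes protein 4.2 of the membrane skeleton, had 3.15. The SD over libraries was close to the mean in each gene (5411 TPM for Hbb-bs, 76.8 for Slc4a1 and 64.9 for Alas2), and the ranges of all neighbours in this order overlapped. Within a library, Hbb-bs was above Hbb-bt in TPM and in CPM in all 9. Hba-a2 was above Hba-a1 in TPM in all 9, but in counts it was 0.967 to 1.22 times Hba-a1, and below it in PBS replicate 2 and SR-717 replicate 2. In TPM, Alas2 was 0.764 to 6.05 times Slc4a1.

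Of the alpha globin genes, Hba-a1 had 1971, 3251 and 946 CPM in the H-151 replicates, 95.4, 2523 and 302 in the PBS replicates, and 176, 1953 and 855 in the SR-717 replicates. Hba-a2 had 2133, 3403 and 966 CPM with H-151, 116, 2440 and 355 with PBS, and 188, 1946 and 925 with SR-717. In both genes replicate 2 was the highest library of every group, and PBS replicate 1 was the lowest of all 9 libraries.

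Of the beta globin genes, Hbb-bs had 2768, 5579 and 1445 CPM in the H-151 replicates, 173, 3389 and 634 in the PBS replicates, and 333, 2969 and 1327 in the SR-717 replicates. Hbb-bt had 765, 1357 and 381 CPM with H-151, 39.7, 1004 and 168 with PBS, and 82.5, 828 and 354 with SR-717. The beta genes ordered the libraries in the same way as each other and exchanged only the 3rd and the 4th place with the order of the alpha genes.

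Alas2 had 129, 196 and 44.6 CPM in the H-151 replicates, 5.69, 131 and 13.3 in the PBS replicates, and 12.1, 105 and 43.2 in the SR-717 replicates. Slc4a1 had 326, 486 and 67.2 CPM with H-151, 5.06, 308 and 5.02 with PBS, and 13.7, 310 and 62.2 with SR-717. Slc4a1 was about equally low in PBS replicates 1 and 3 (88 and 90 counts), although Hbb-bs had 634 CPM in replicate 3 and 173 in replicate 1.

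Epb42 had 12.9, 15.2 and 3.16 CPM in the H-151 replicates, 0.115, 12.1 and 0.167 in the PBS replicates, and 0.358, 10.3 and 2.26 in the SR-717 replicates. It rested on 2 and 3 counts in PBS replicates 1 and 3 and on 307 in H-151 replicate 2. Klf1 had 11.3, 24.1 and 5.99 CPM with H-151, 0.92, 30 and 0.781 with PBS, and 0.87, 19 and 5.38 with SR-717. It was the only one of the 8 genes whose highest library was PBS replicate 2, and its lowest level rested on 14 counts.

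**Figure D1:**
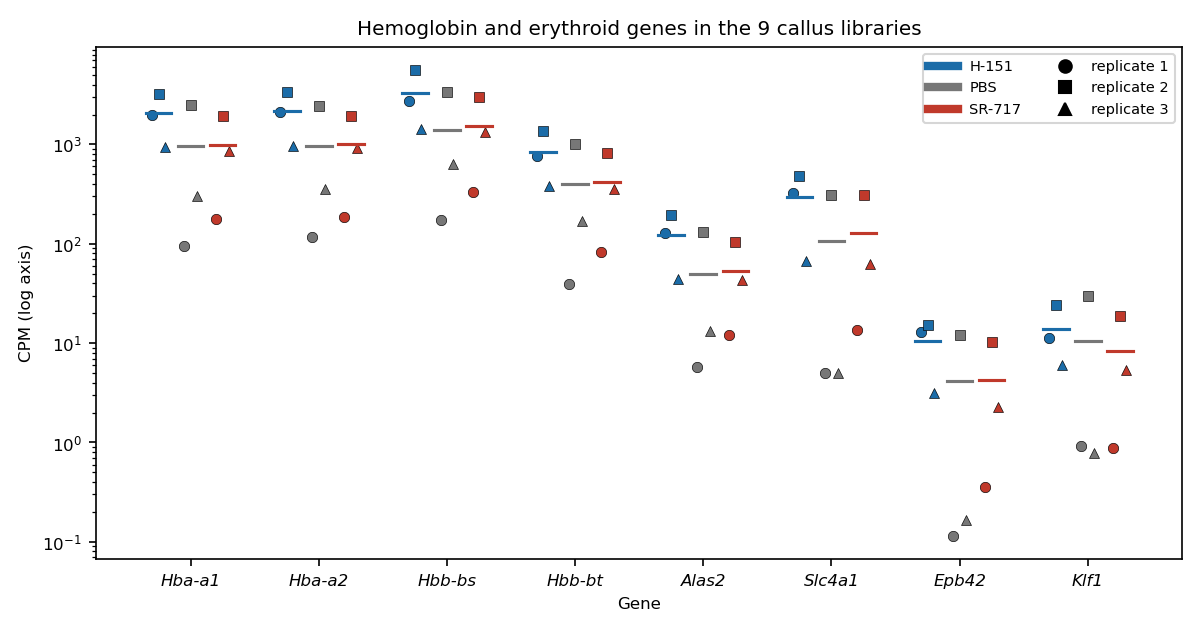
Levels of the 8 erythroid genes in CPM on a log axis, by gene, with a point for each library (colour for the group, shape for the replicate number) and a line at each group mean. In every gene replicate 2 is the highest point of its group, and the lowest points belong to PBS replicates 1 and 3 and SR-717 replicate 1.

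The 8 genes placed the libraries in nearly the same order. In all 8, H-151 replicates 1 and 2, PBS replicate 2 and SR-717 replicate 2 took places 1 to 4, H-151 replicate 3 place 5, SR-717 replicate 3 place 6, and PBS replicates 1 and 3 and SR-717 replicate 1 places 7 to 9. The PBS and SR-717 groups thus each held libraries from both ends of the order, while no H-151 library was among places 7 to 9. The highest library exceeded the lowest 29.3-fold in Hba-a2, 32.3-fold in Hbb-bs, 34.1-fold in Hba-a1, 34.2-fold in Hbb-bt and 34.4-fold in Alas2. The ratio was 96.8 in Slc4a1 (95% counting interval 78.7 to 120.5) and 38.4 in Klf1 (22.7 to 70.6). For Epb42, with 2 counts in the lowest library, the ratio was 132 with an interval of 36.3 to 1097. Over the 14177 genes that passed the filter on low counts and were above 0 in all libraries, the median ratio was 1.93, and 1.44% of genes had a ratio of at least 29.3.

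Across the 9 libraries, the log2 CPM of any pair of the 8 genes had a Pearson r between 0.938 and 0.999 (28 pairs, median 0.974), and Spearman's rho ran from 0.867 to 1. The points of these correlations share their libraries, and they describe these 9 libraries only. The copies of a pair were the closest, with r = 0.999 for Hba-a1 and Hba-a2 and 0.999 for Hbb-bs and Hbb-bt, as reads shared between copies would also give. Slc4a1 and Epb42, both of the membrane, had r = 0.997, and Alas2 and Hba-a1 had 0.993. The lowest value was that of Klf1 and Hbb-bt.

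The balance of the globin chains moved little while their level moved over 29-fold. The summed TPM of the beta genes over that of the alpha genes was 0.824, 1 and 0.918 in the H-151 replicates, 0.957, 0.852 and 1.16 in the PBS replicates, and 1.09, 0.936 and 0.904 in the SR-717 replicates. The groups overlapped, and the libraries with the most and the least globin did not hold the extremes of this ratio. Hbb-bs was 3.78 to 4.87 times Hbb-bt in TPM in every library, and Hba-a2 was 1.22 to 1.54 times Hba-a1, within the limit set by the shared reads.

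The genes beyond the globins kept less constant ratios to them. The summed globin TPM was 190 to 347 times that of Alas2. Relative to Slc4a1 it was 170, 202 and 402 in the H-151 replicates, 608, 219 and 2102 in the PBS replicates, and 412, 179 and 403 in the SR-717 replicates. PBS replicate 3 thus had by far the most globin per Slc4a1. It also had the most globin per Klf1, with a ratio of 4548 against 757 to 2175 in the other 8 libraries, and the most per Alas2. The libraries numbered 2 and H-151 replicate 1 were at or below 219 for Slc4a1. The Slc4a1 and Klf1 levels behind the highest ratios rested on 90 and 14 counts.

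**Figure D2:**
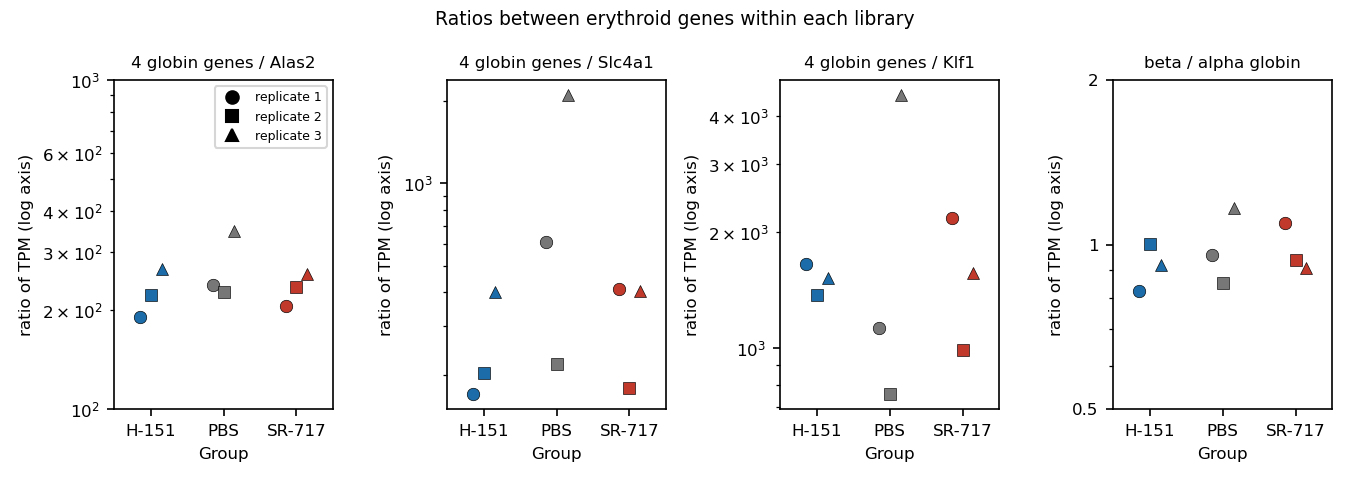
Ratios of TPM within each library, on log axes: the sum of the 4 globin genes over Alas2, over Slc4a1 and over Klf1, and the sum of the beta over the sum of the alpha genes. Points are libraries by group (x axis) and replicate number (shape), and PBS replicate 3 is the highest point in all 4 panels, at 2102 for Slc4a1 and 1.16 for beta over alpha.

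The comparison of SR-717 with H-151 asked how activating STING differed from inhibiting it. The means of all 8 genes were lower with SR-717, but none passed the test, and the groups overlapped in every gene (over all genes, SR-717 was wholly above H-151 in 2.23% and wholly below in 2.82%). Hbb-bs averaged 1543 ± 1331 CPM (SD, n = 3) with SR-717 and 3264 ± 2111 with H-151, Alas2 53.3 ± 47.1 and 123 ± 75.8, and Klf1 8.4 ± 9.41 and 13.8 ± 9.33. The log2 fold changes ran from -1.27 in Epb42 to -0.71 in Klf1 with a median of -1.08, against a median of 0.02 over all 14151 genes tested, and 0 of the 8 genes were above 0 against 53.4% of all genes. Their SEs ran from 0.83 to 1.15, where the median SE over all genes was 0.24. In edgeR's quasi-likelihood test with Benjamini-Hochberg adjustment, 0 of the 8 genes had an adjusted p under 0.05 (adjusted p = 0.996 for each), as did 0% of all genes tested. At an unadjusted p under 0.05 the counts were 0 of 8 and 1.03%, with a 1.5-fold change in addition they were 0 of 8 against 0.367% higher and 0.389% lower, and DESeq2 called 0 of the 8 at either threshold.

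The intervals of the difference were wide. For Hbb-bs the log2 fold change was -1.08 with a 95% interval of -3.09 to 0.93, and for Slc4a1, the red cell anion exchanger, it was -1.19 with an interval of -3.98 to 1.61. SR-717 replicate 1 and SR-717 replicate 3 were below all 3 H-151 libraries in all 8 genes, and SR-717 replicate 2 was above H-151 replicate 3. Same-numbered libraries were not taken as pairs in this comparison. Their median difference over the 8 genes was -3.5 in log2 CPM for replicate 1, -0.72 for replicate 2 and -0.12 for replicate 3. For each number, 0 of the 8 genes were higher with SR-717. Without SR-717 replicate 2, the median was -2.07, and 3 genes (Alas2, Slc4a1 and Epb42) passed an unadjusted p under 0.05 with a 1.5-fold change, where 1.19% of all genes passed as lower, and none had an adjusted p under 0.05. The median was -0.58 without H-151 replicate 2 and -0.6 without SR-717 replicate 1.

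The comparison of SR-717 with PBS showed near-equal means. Hbb-bs averaged 1543 ± 1331 CPM with SR-717 and 1399 ± 1739 with PBS (SD, n = 3 each), and Hba-a1 averaged 995 ± 897 and 973 ± 1346. The log2 fold changes ran from -0.32 in Klf1 to 0.29 in Slc4a1 with a median of 0.08 (median of all 14070 genes tested 0.01), and 7 of 8 were above 0 against 52.2% of all genes. None of the 8 had an adjusted p under 0.05 in edgeR (adjusted p = 1 for each, 0% of all genes called). At an unadjusted p under 0.05 there were 0 of 8 and 0.689% of all genes, with a 1.5-fold change in addition 0 of 8 against 0.27% higher and 0.249% lower, and DESeq2 called 0 of 8 at either threshold. The groups overlapped in all 8 genes, against 1.36% of all genes with SR-717 wholly above PBS and 2.62% wholly below. The intervals were wide, from -2.64 to 2.94 for Hbb-bs, so near-equal means do not show that the groups were alike.

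The direction of this comparison turned with single libraries. Without PBS replicate 2 the median was 2.41, and Slc4a1 and Epb42 (2 of 8) passed an unadjusted p under 0.05 with a 1.5-fold change, where 1.06% of all genes passed as higher. Without SR-717 replicate 2 the median was -0.89, without PBS replicate 1 it was -0.45, and without PBS replicate 3 it was -0.33. Without SR-717 replicate 1 it was 0.59 and without SR-717 replicate 3 it was 0.21. Leaving out SR-717 replicate 1 and PBS replicate 1 together gave 0.06. Between libraries of the same number, the median difference of the 8 genes was 1 in log2 CPM for replicate 1, -0.3 for replicate 2 and 1.59 for replicate 3.

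The comparison of H-151 with PBS, which shares its PBS libraries with the comparison above and its H-151 libraries with the earlier one, had the largest median of the 3. Hbb-bs averaged 3264 ± 2111 CPM with H-151 and 1399 ± 1739 with PBS (SD, n = 3 each), Alas2 123 ± 75.8 and 50 ± 70.2, and Slc4a1 293 ± 211 and 106 ± 175. The log2 fold changes ran from 0.38 in Klf1 to 1.47 in Slc4a1 with a median of 1.19 (median of all 14085 genes tested -0.02), and 8 of 8 were above 0 against 44.2% of all genes. In edgeR 0 of the 8 had an adjusted p under 0.05 (adjusted p = 1 for each, 0% of all genes). At an unadjusted p under 0.05 there were 0 of 8 and 0.646% of all genes, with a 1.5-fold change in addition 0 of 8 against 0.263% higher and 0.163% lower, and DESeq2 called 0 of 8 at either threshold. The groups overlapped in all 8 genes, against 1.6% of all genes with H-151 wholly above PBS and 2.15% wholly below. Every H-151 library was above PBS replicates 1 and 3, and PBS replicate 2 was above at least H-151 replicate 3.

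From correlations in these same data and not from the labels, the replicate numbers were taken to pair the H-151 and PBS libraries. The difference was larger in a fit with the replicate number as a block. Its median was 2, and 5 of the 8 genes passed an unadjusted p under 0.05 with a 1.5-fold change, where 1.43% of all genes passed as higher. These were Slc4a1 (log2 fold change 3.43 ± 1.1 SE), Alas2 (2.13 ± 0.75), Hba-a1 (2.05 ± 0.79), Hba-a2 (1.96 ± 0.74) and Hbb-bs (1.89 ± 0.68). All had an adjusted p of 1 in edgeR with the block. As the block was chosen from these same data, its unadjusted calls are a description only. The 8 genes also moved together, with a pairwise Pearson r of 0.938 to 0.999. Counts out of the 8, here and in the other comparisons, are therefore not counts of separate results. Between libraries of the same number, the median difference of the 8 genes was 4.32 in log2 CPM for replicate 1, 0.46 for replicate 2 and 1.69 for replicate 3, and 8, 7 and 8 of the 8 genes were higher with H-151. Klf1 was the exception in replicate 2, with 24.1 CPM with H-151 and 30 with PBS. Without PBS replicate 2, the median was 3.54 and 8 of 8 genes passed the unadjusted threshold, where 3.39% of all genes passed as higher, with a lowest adjusted p of 0.59. Without H-151 replicate 2, PBS replicate 1 or PBS replicate 3 the median was 0.64, 0.67 and 0.76.

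**Figure D3:**
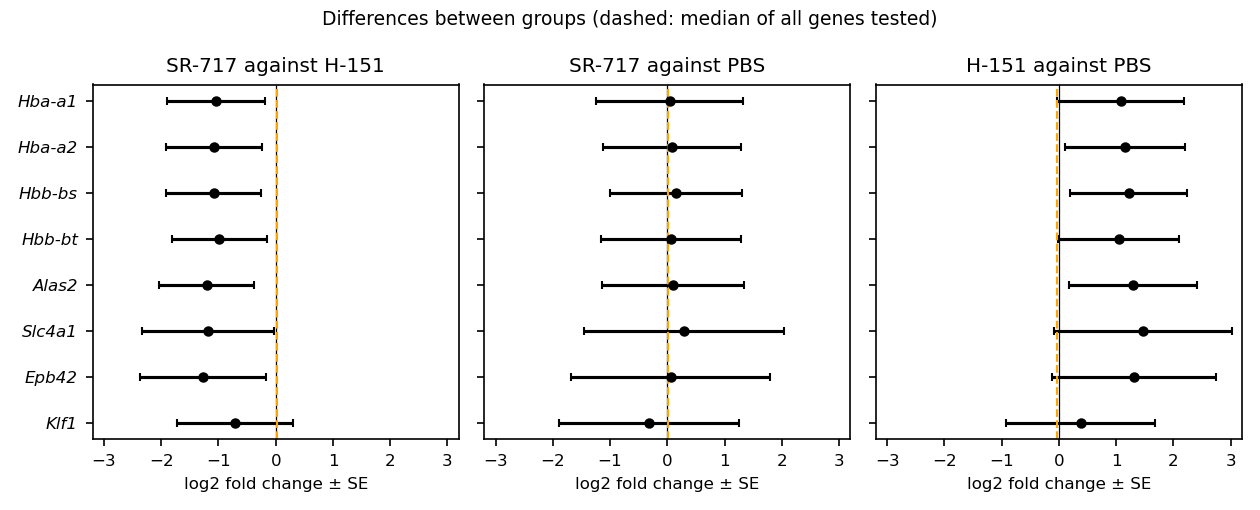
Log2 fold changes of the 8 erythroid genes with their SE (bars) in the 3 comparisons, from edgeR fits of 6 libraries each, with the median of all genes tested as a dashed line. The values lie around -1.08 for SR-717 against H-151, around 0.08 for SR-717 against PBS and around 1.19 for H-151 against PBS, and the bars are 0.83 to 1.75 long on each side.

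Further genes of the red cell program came from lists of 92 genes found in the table: other globin genes, heme synthesis, iron uptake, the red cell membrane, erythroid transcription factors, late erythroid genes, erythroid progenitor genes and the clearance of red cells and heme. None had an adjusted p under 0.05 in any comparison by edgeR (lowest adjusted p 0.996) or by DESeq2. At an unadjusted p under 0.05, edgeR passed Spic, a transcription factor of iron-recycling macrophages, in SR-717 against H-151 (1 of 87 genes tested, where 1.03% of all genes passed) and in SR-717 against PBS (1 of 86, where 0.689% did). In H-151 against PBS it passed Cd36 and Cd163 (2 of 87, where 0.646% of all genes passed), the latter being the receptor that takes up hemoglobin bound to haptoglobin. DESeq2 passed 2, 1 and 2 genes at an unadjusted p under 0.05, and its share over all genes at that threshold is not given here. These 3 genes are named for having passed. The log2 fold change was above 0 in 27 of 87, 61 of 86 and 69 of 87 of the list genes, against 53.4%, 52.2% and 44.2% of all genes tested.

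Of the other globin genes, 6 had a row. Hbq1b, a theta globin gene, was the only one tested, with 1.83, 2.92 and 0.776 CPM with H-151, 0, 1.45 and 0.0558 with PBS and 0.102, 1.46 and 0.521 with SR-717, and its order of libraries was close to that of the 8 genes (r = 0.989). Hbq1a had at most 0.296 CPM. The embryonic globin genes Hba-x and Hbb-y reached at most 0.0987 and 0.0555 CPM, and Hbb-bh1 and Hbb-bh2 had 0 counts in all 9 libraries, which allows up to 0.128 to 0.174 CPM by library (3 counts). No embryonic globin gene rose above that limit in any library.

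Of the red cell lists with more than 1 gene tested, those of the membrane and of heme synthesis had the highest median likeness to the 8 erythroid genes. Likeness was measured as Pearson's r of log2 CPM with the mean of the standardized 8 genes over the 9 libraries, which is a description of 9 shared points. Of the red cell membrane genes, 14 of 18 had r of 0.9 or more, against 149 of 14286 genes (1.04%) over all. Aqp1, the water channel, had 353 to 625 CPM and r = 0.841. Ank1, ankyrin, had r = 0.798, and Epb41, protein 4.1, had r = 0.915. Of the heme synthesis genes, 8 of 13 reached 0.9. Fech, ferrochelatase, which inserts the iron, had 75.6 to 183 CPM and r = 0.954, while Alas1, the form of the enzyme used outside the erythroid line, had 45.3 to 205 CPM and r = -0.18. Tmem14c, a porphyrin carrier of mitochondria, had r = 0.717.

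Among erythroid transcription factors, 5 of 14 reached 0.9. Ldb1, Lmo2 and Nfe2, the most abundant of the list, had r of 0.43, 0.632 and 0.434, and Nfe2, which megakaryocytes and granulocytes also use, was highest in SR-717 replicate 1 at 63.3 CPM. Of the late erythroid genes 6 of 16 reached 0.9, and the most abundant of them, Prdx2, Rnf10 and Isca1, had 0.802, 0.797 and 0.571. Of the progenitor genes 4 of 7 reached 0.9. Epor, the erythropoietin receptor, had 6.86, 9.66 and 3.66 CPM with H-151, 0.977, 13.7 and 2.23 with PBS and 0.409, 9.38 and 3.3 with SR-717 (r = 0.928), Gata2 had 0.773 and Cd36 0.286.

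Genes of iron handling and red cell clearance did not follow. None of 8 iron uptake genes reached 0.9, and 6 had r below 0. Tfrc, the transferrin receptor, had 112, 90.6 and 273 CPM with H-151, 253, 120 and 134 with PBS and 186, 159 and 103 with SR-717 (r = -0.597). The ferritin genes Ftl1 and Fth1 had r of -0.59 and -0.584. Of 12 clearance genes, 1 (Cd163) reached 0.9 and 7 were below 0, among them Hp, haptoglobin (-0.432), Hmox1, heme oxygenase (-0.478), and Sirpa (-0.551). The medians over the lists were 0.956 for the membrane, 0.946 for heme synthesis, 0.928 for progenitor genes, 0.863 for late genes, 0.809 for transcription factors, -0.276 for clearance and -0.492 for iron uptake, against 0.0057 over all genes.

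The genes most like the 8 were Trim10 (r = 0.998), Vpreb3 (0.994), Cd79a (0.993), Slc38a5 (0.993), Car1 (0.992), Rhag (0.991), Gata1 (0.989), Hbq1b (0.989), Btnl10 (0.988) and Paqr9 (0.988). Trim10 is a gene of late erythroid maturation and had 24.3, 40.7 and 8.54 CPM with H-151, 0.46, 27.7 and 1 with PBS and 0.922, 22.1 and 6.14 with SR-717. Gata1, the master erythroid factor, had 8.74, 15.6 and 5.05 CPM with H-151, 0.46, 15.1 and 0.893 with PBS and 0.614, 14.6 and 5.27 with SR-717. Vpreb3 and Cd79a belong to B cells and not to the red cell line. Against the 4 globin genes alone, Slc38a5, Fcmr, Vpreb3, Car1, Trim10, Cd79a, Rhag and Add2 were among the 10 closest (0.993 to 0.981). Against Alas2, Slc4a1, Epb42 and Klf1 alone, Trim10, Btnl10, Kel, Hemgn, Pklr, Hbq1b and Ermap were among them (0.996 to 0.989). B cell genes stood only in the lists for the globins and for all 8 genes.

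Most markers of B lineage cells, which also develop in marrow, moved with the erythroid genes. Of 10 B lineage markers, 8 had r of 0.9 or more and none was at 0 in all libraries. Their summed level was 81.5, 102 and 51.5 CPM in the H-151 replicates, 38.8, 79 and 43.3 in the PBS replicates, and 39.3, 97.8 and 44.5 in the SR-717 replicates. Ebf1 went the other way (r = -0.58) and made up most of the sum in the low PBS libraries. It had 31.2 CPM in PBS replicate 1 and 30.85 in PBS replicate 3, so the sum understates the fall of the other markers. Cd79a, a chain of the B cell receptor complex, had 14.3, 20.9 and 6.99 CPM with H-151, 1.55, 15.1 and 2.68 with PBS and 2, 17.5 and 5.67 with SR-717. The 9 platelet and megakaryocyte markers ran from 242 to 477 CPM in sum, and 2 of them reached 0.9. The part of marrow or blood cells in the erythroid values was not tested.

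Markers of other blood cells did not share this order. The 12 neutrophil markers, none at 0 in all libraries, summed to 1427 to 5172 CPM with H-151, 634 to 4057 with PBS and 2709 to 16280 with SR-717, with 0 of 12 at r of 0.9. SR-717 replicate 1, which had little globin, held the highest neutrophil sum. Of 9 macrophage markers, all had r below 0, with sums of 3606 to 4521 CPM with H-151, 3228 to 5496 with PBS and 3902 to 9696 with SR-717. The 9 cartilage markers summed to 5801 to 12100 CPM with H-151, 1646 to 16940 with PBS and 264 to 9699 with SR-717, with a median r of 0.698 and none at 0.9, and were lowest in SR-717 replicate 1 and PBS replicate 1, which also had the least globin. The osteoblast markers had a median r of 0.316, the osteoclast markers -0.0403, the endothelial markers 0.0126, the skeletal muscle markers 0.589, the adipocyte markers 0.677 and the keratinocyte markers 0.157. The part of these cell types in the erythroid values was not tested.

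**Figure D4:**
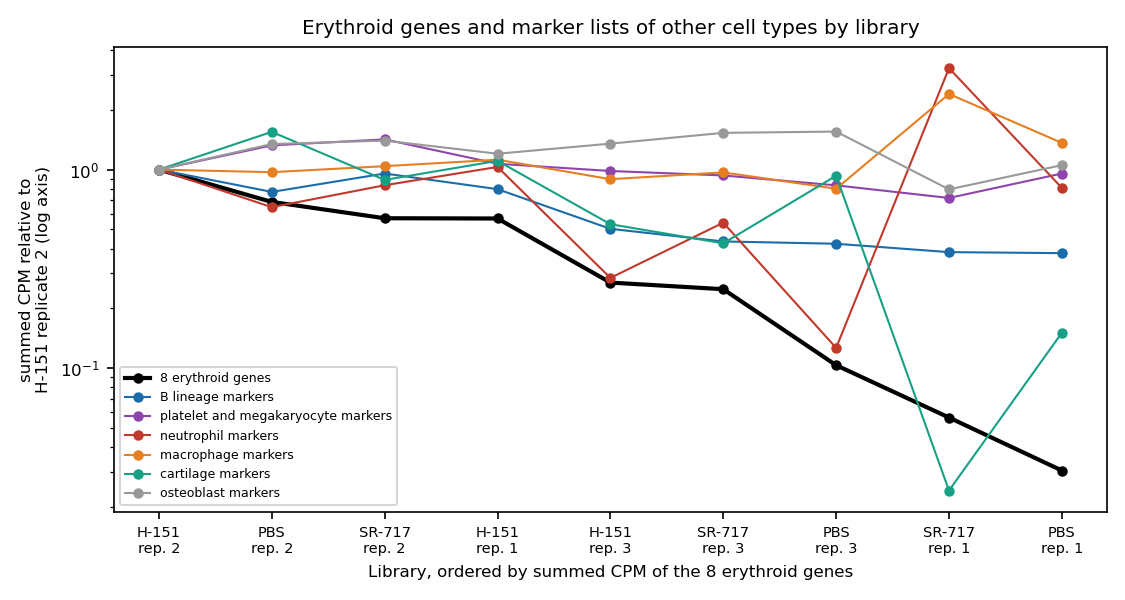
Summed CPM of the 8 erythroid genes and of marker lists of other cell types in each library, relative to H-151 replicate 2, on a log axis, with libraries ordered by the erythroid sum. The erythroid sum falls from 14310 to 436 CPM over this order and the B lineage sum from 102 to 38.8, while neutrophil markers peak at 16280 CPM in SR-717 replicate 1. Of the B lineage sum in PBS replicate 1, 31.2 CPM was Ebf1, which did not follow the erythroid genes.

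**Figure D5:**
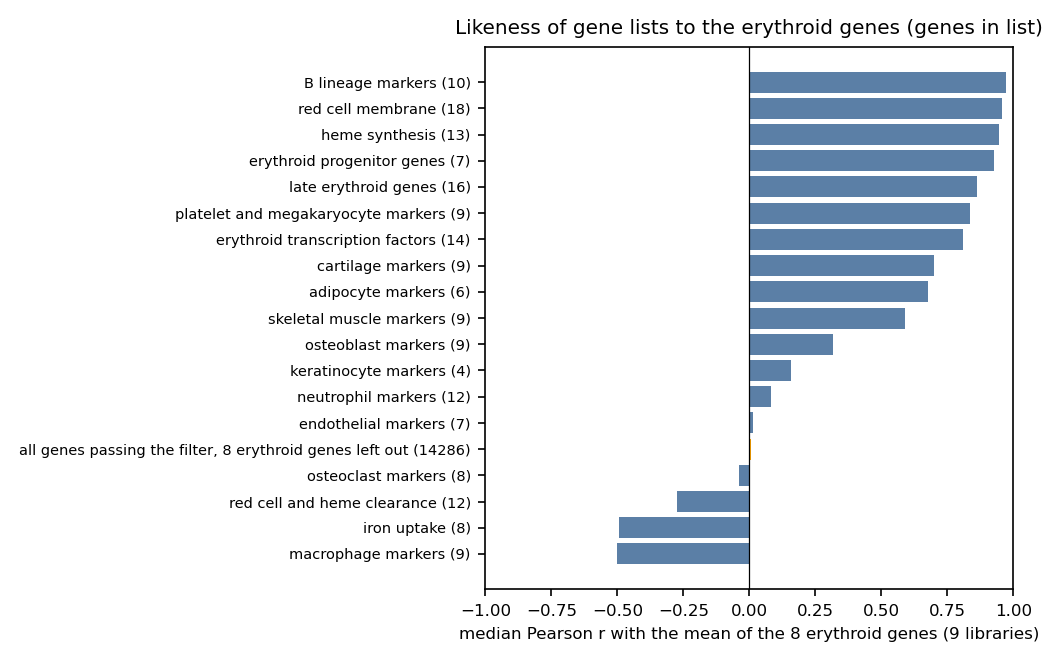
Median Pearson r of the genes of each list with the mean of the 8 erythroid genes over the 9 libraries, with the number of genes in brackets and all other genes in orange. B lineage, red cell membrane and heme synthesis lists have the highest medians (0.972, 0.956 and 0.946), and iron uptake and macrophage lists the lowest (-0.492 and -0.503).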

How the data were processed

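Sequencing and mapping were done for the authors by a service company. Poly(A) RNA was made into stranded libraries and read as 150 bp paired ends, and the submitters' processing notes name the build mm10. The aligner, the counter, the annotation and the use of strand were not given in the sources used here. The authors deposited expected counts per gene, not normalized (8.91% of all values, zeros included, were not whole), and TPM values, which the authors scaled by gene length and to a common sum per library. No pair of libraries agreed within sampling noise.

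Expected counts were rounded and tested with edgeR 4.0.16 (R 4.3.3; TMM, filterByExpr with a minimum count of 10, quasi-likelihood test, Benjamini-Hochberg adjustment over all genes) on the 6 libraries of each comparison, without covariates. Totals of 16987398 to 23272480 counts per library set the precision. DESeq2 1.42.0, limma 3.58.1 on log2(TPM + 1) and log2(TPM + 0.1), other filters and scalings, a replicate block and leaving out each library were alternatives. The level plots use CPM, and log2 CPM has a prior count of 2. Steps were tested on simulated data.

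Genes named in the text are the members, the 3 most abundant genes of each list that is not a marker list, all other globin genes, and the 10 genes most like the members, some of which are not reported here. The members and lists were chosen with earlier results of these data known. Deviations from the group means of same-numbered libraries correlated over 14294 genes at 0.304, 0.485 and 0.503 for H-151 and PBS and at 0.65, 0.341 and 0.139 for SR-717 and PBS, so that the numbers were taken to pair these libraries. For SR-717 and H-151 the values were 0.342, 0.0622 and 0.0792, and the libraries were taken to share only a number. These decisions do not hold together, since numbers that pair both groups with PBS would also pair SR-717 with H-151. The values overlapped, as 0.342 for SR-717 and H-151 lies above 0.304 for H-151 and PBS and 0.139 for SR-717 and PBS. The pairing comes from these correlations, since the labels do not say what a number stands for.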

Additional observations from a re-analysis of the deposited data

How the results depend on the processing

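No alternative gave any of the 8 genes an adjusted p under 0.05 in edgeR, DESeq2 or limma, in any comparison. Over all genes, DESeq2 called 1 of 14151 at that threshold in SR-717 against H-151. It called 0 of 14070 in SR-717 against PBS and 0 of 14085 in H-151 against PBS. Depth limited the levels of Epb42 (2 counts in the lowest library) and Klf1 (14 counts), and the other 6 genes had at least 88 counts in each library. Genes passing an unadjusted p under 0.05 with a 1.5-fold change were 0 of 8 in each comparison, and 5 with the replicate block in H-151 against PBS. The block changed no other call, with medians of -1.38 for SR-717 against H-151 and 0.66 for SR-717 against PBS. Leaving out a library gave 0 to 3 genes for SR-717 against H-151, 0 to 2 for SR-717 against PBS and 0 to 8 for H-151 against PBS, and medians of -2.07 to -0.58, -0.89 to 2.41 and 0.64 to 3.54. limma on log2(TPM + 1) gave medians of -1.46, 0.52 and 1.98. Scaling by DESeq2 size factors or without the globin counts moved no median by more than the spread between replicates.

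For Klf1 in SR-717 against PBS the sign turned to 0.56 with the replicate block, 0.36 with limma on log2(TPM + 1) with or without the filter, and 0.56 on log2(TPM + 0.1), and the cause was not tested. Leaving out a library turned signs in SR-717 against PBS for every gene, with ranges of -0.90 to 2.33 for Hba-a1, -0.78 to 2.12 for Hba-a2, -0.74 to 1.95 for Hbb-bs, -0.87 to 2.03 for Hbb-bt, -0.84 to 2.5 for Alas2, -1.47 to 4.68 for Slc4a1, -1.66 to 4.87 for Epb42 and -1.75 to 3.3 for Klf1. In H-151 against PBS it did so for Klf1 alone, with a range of -0.29 to 4.02. Leave-one-out fits with 2 libraries in a group pool the spread over genes.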
